A study of Mus musculus with 16 samples.

Results

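Thyroid hormone reaches its receptors only after passing through transporters and deiodinases, and 5 mouse genes of this route were examined in sorted skin epithelium: Dio2, Dio3, Thra, Thrb and Slc16a10. They were chosen by name, with the difference of Dio2 between 2 states of hair follicle stem cells (HFSC) already known, and are 5 of 31239 gene rows kept for testing. Together they have 9 probes on the array, and of several probes the one with the highest mean over the 16 arrays stands for its gene. Values are the scanner's processed signals on the log2 scale, less each array's 75th percentile, so 0 marks that percentile. For the young control tHFSC array, whose file breaks off, the constant of the authors' value table was subtracted in its place. Probes differ in how brightly they hybridise, so levels of different genes were not set against each other.

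The series profiled how hair follicle stem cells divide in regeneration and aging, on 16 one-colour arrays with 1 array per group. Sorting took CD34-high, ITGA6-high, Sca1-negative cells for HFSC and ITGA6-high, Sca1-high cells for interfollicular epidermis (IFE). Each of 6 HFSC conditions has 1 array called tHFSC and 1 called aHFSC, names left unexplained in the labels. IFE was collected in 4 groups, young and aged, from wild-type (WT) and from hCOL17A1 transgenic mice.

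The age was 12 weeks for young mice and 25 to 26 months for aged mice. The young control HFSC came from WT (C57BL/6) mice. The Col17a1 conditional knockout (cKO) was Col17a1 flox/flox,K15crePR and lacks, where recombined, the transmembrane collagen of hemidesmosomes. The aPKC cKO was aPKCλ flox/flox,K15crePR and lacks an atypical protein kinase C that sets cell polarity. In both, the Keratin 15 promoter drives a Cre that the drug RU486 switches on, so deletion is limited to cells in which that promoter was active. RU486 was given at 2.5 mg for 5 days from 8 weeks of age and is labelled for control, Col17a1 cKO and aPKC cKO mice, not for the hCOL17A1, aged or IFE groups. Plucking of hair, with an interval of 3 days, is labelled for the control and Col17a1 cKO aHFSC and for no other aHFSC. The hCOL17A1 mice carry a human COL17A1 transgene whose promoter the labels do not give. The labels do not say whether an array came from 1 mouse or from several.

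The sorted populations carried the markers of their labels. Of 7 bulge markers, 6 were called higher in HFSC than in IFE, beside 2.07% of all gene rows. The remaining bulge marker had a fitted difference that was not positive, and it was not called. All 6 IFE markers were called lower in HFSC, beside 4.22% of all gene rows. These counts include Cd34, higher by 8.87 ± 0.86, and Ly6a, which encodes Sca1, different by -6.33 ± 0.38 (log2, SE). The cells were sorted on the proteins of these genes, so both differences describe the sort and are no independent check of it. The share of probes well above background ran from 59.2% to 79.8%, with the aged hCOL17A1 aHFSC array lowest. That array and the young hCOL17A1 IFE array stood apart in earlier results of these data, and the values they bear on most are also given without both. The 8 young HFSC arrays lie on one slide, and the 4 aged HFSC and 4 IFE arrays on the other. Age in HFSC and the slide cannot be told apart, and young HFSC set against IFE also crosses slides. In sorted bulk cells, fewer cells that express a gene and less RNA per cell cannot be told apart.

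Most circulating thyroid hormone is the prohormone thyroxine (T4). Deiodinases are selenoenzymes of the cell itself: the type 2 enzyme encoded by Dio2 removes an outer-ring iodine and yields the active hormone T3, while the type 3 enzyme encoded by Dio3 removes an inner-ring iodine and inactivates both hormones. Slc16a10 encodes MCT10, a membrane transporter of T3, T4 and aromatic amino acids. T3 acts through the nuclear receptors encoded by Thra and Thrb, which bind DNA with retinoid X receptors and repress or activate target genes depending on the hormone. In skin, thyroid hormone is known to affect hair growth and keratinocyte proliferation, and hair follicles express deiodinases and receptors.

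The promoter sequences of the 2 deiodinase genes are shown because the genes lie on the same chromosome, have opposite enzymatic roles, and varied among the most and the least of all genes across the arrays. The variation of Dio2 includes the state difference known when it was chosen, so its high rank is no separate result. Both are the 250 bases before the gene start in RefSeq (GRCm38.p6), 5′ to 3′ on the gene's strand. Dio2 lies at chr12:90739039-90739288 on the minus strand and Dio3 at chr12:110278980-110279229 on the plus strand. Capitals mark matches, on either strand, to the cAMP response element TGACGTCA, the TATA box TATAAA and the GC box GGGCGG.
Dio2: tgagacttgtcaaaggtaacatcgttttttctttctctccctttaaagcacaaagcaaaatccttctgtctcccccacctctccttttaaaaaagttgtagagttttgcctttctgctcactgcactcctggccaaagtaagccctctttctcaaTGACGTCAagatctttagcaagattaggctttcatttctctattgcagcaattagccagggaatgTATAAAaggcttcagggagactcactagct
Dio3: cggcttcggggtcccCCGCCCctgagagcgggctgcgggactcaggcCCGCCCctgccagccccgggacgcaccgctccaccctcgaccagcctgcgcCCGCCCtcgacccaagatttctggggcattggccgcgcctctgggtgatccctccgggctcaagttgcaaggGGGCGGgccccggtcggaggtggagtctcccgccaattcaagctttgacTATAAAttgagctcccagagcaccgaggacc
The Dio2 window holds TGACGTCA, whose first base lies 95 bases before the gene start, and TATAAA at 30 bases. The Dio3 window holds TATAAA at 31 bases and 4 GC boxes. Of 32851 mouse promoters in the same table, 1.55% hold TGACGTCA, 12.4% hold TATAAA and 32.7% hold GGGCGG. The Dio2 window has 41.6% G or C and 2 CpG, and the Dio3 window 69.6% and 21 CpG, against a median of 52.4% and 6 CpG over all promoters. Neither holds the Gli site GACCACCCA (0.225% of promoters) or the receptor's direct repeat element (0.0152%), searched on both strands. A match of letters is a description of the sequence and not a site of binding. Promoters were found for 4 of the 5 genes, Thra being the other.

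Dio2, the activating deiodinase, was higher in aHFSC than in tHFSC in all 6 conditions, and no tHFSC array reached the level of any aHFSC array. Dio2 was chosen with its state difference known. The share of all gene rows whose states lie apart in this way was not counted, so no rank is given to this separation. Its single probe lies at chr12:91963235-91963294 on the minus strand (mm9), and it was well above background on 16 of 16 arrays. In tHFSC the log2 levels were -3.02 in young control, -1.06 in young Col17a1 cKO, -2.17 in young aPKC cKO, -3.02 in young hCOL17A1, -2.79 in aged WT and -3.40 in aged hCOL17A1. In aHFSC they were 1.75, 0.76, 0.81, 1.25, 3.33 and 2.15 in the same order. The highest tHFSC array was the Col17a1 cKO and the highest aHFSC array was the aged WT. The first 30 of the probe's 60 bases are given here, since every Dio2 value rests on this 1 probe.
Dio2 probe: aatgataactactgacgaaagagctgtctg

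The size of the Dio2 difference varied widely between conditions. It was 27.3-fold in young control, 19.2-fold in young hCOL17A1, 7.89-fold in young aPKC cKO and 3.51-fold in young Col17a1 cKO. In the aged conditions it was 69.5-fold in WT and 46.9-fold in hCOL17A1. On the log2 scale the mean of the 6 pair differences was 4.25 ± 1.61 (SD, n = 6). Because Dio2 was chosen on this difference, these values are a description and carry no test. The 2 conditions labelled with plucking, young control and young Col17a1 cKO, had pair differences of 4.77 and 1.81. The Col17a1 cKO pair differed least, and its tHFSC array was the highest and its aHFSC array the lowest of their states. Without the aged hCOL17A1 aHFSC and young hCOL17A1 IFE arrays the fitted difference was 3.99, and with normexp background correction 3.09.

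**Figure D1:**
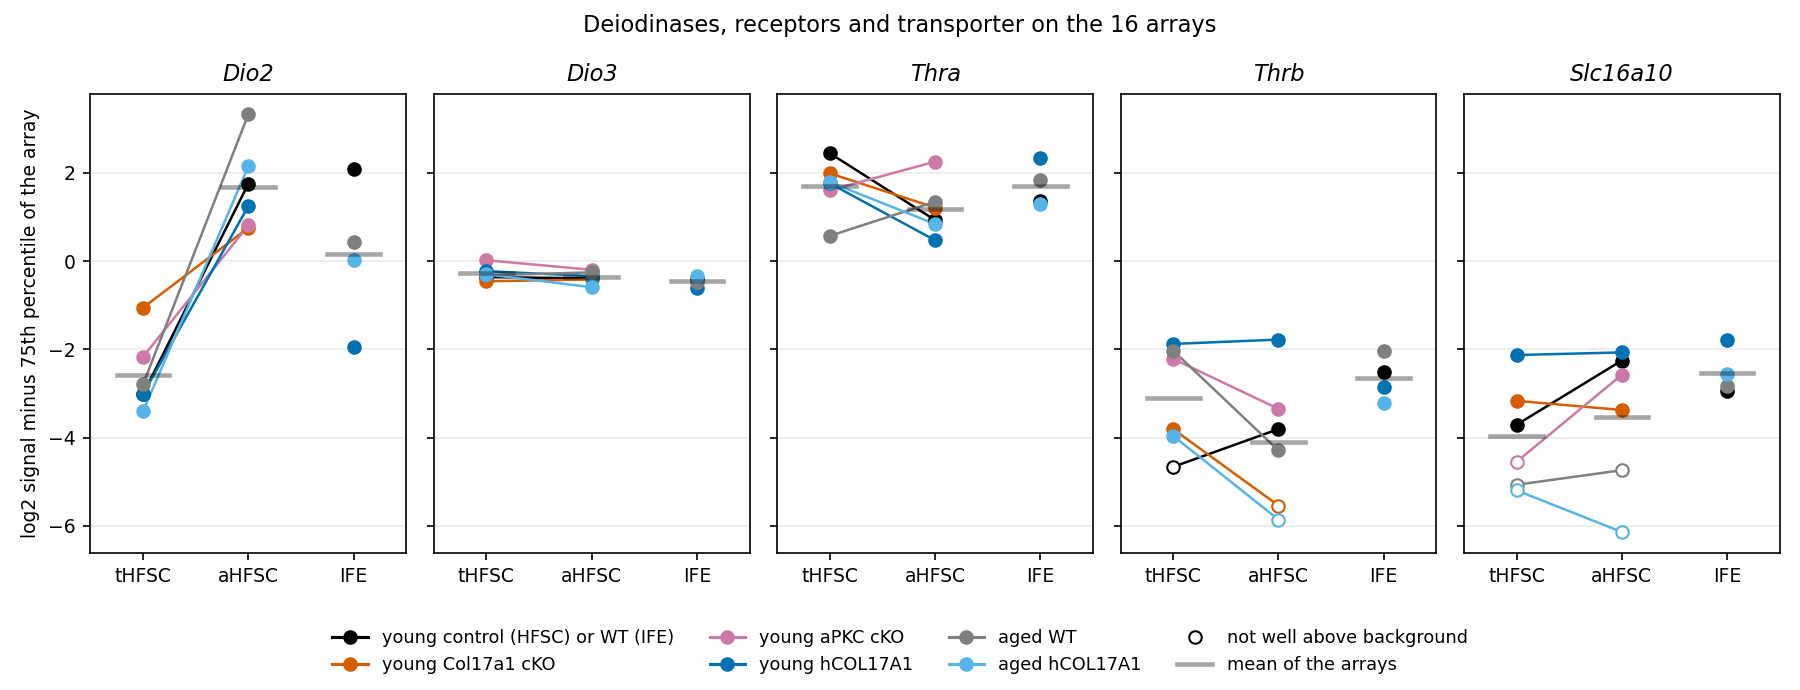
Log2 signal less the array's 75th percentile for the 5 genes, by cell state. Points are single arrays coloured by condition, lines join the 2 states of a condition, open points were not well above background and thick bars are means. Dio2 runs from -3.40 to -1.06 in tHFSC and from 0.76 to 3.33 in aHFSC, with the 4 IFE arrays between -1.95 and 2.09, while Dio3 stays between -0.61 and 0.02 on all 16 arrays.

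The pair differences of Dio2 were 5.55 and 6.12 in the 2 aged conditions and 1.81 to 4.77 in the 4 young ones. A test of the difference itself gave 2.38 ± 1.13 more on the log2 scale in aged than in young HFSC (limma adjusted p = 0.815), which did not pass the threshold of 0.05. Aged and young HFSC were on different slides, so age and slide cannot be told apart. RU486 and plucking are labelled only among the young HFSC, so they cannot be fully told apart from age either. Without the 2 arrays that stood apart the value was 2.66. The transgene gave a difference of 0.99 ± 1.37 in the state shift (adjusted p = 0.854), with the hCOL17A1 pairs at 4.26 and 5.55. That value was 0.34 without the 2 arrays and ran from 0.28 to 1.72 when each array was left out in turn. In both of these comparisons 0% of the 31239 gene rows were called, and 1949 and 2587 had an unadjusted p under 0.05. None of the 5 genes was called in either.

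Of 5 proliferation markers, 3 were called higher in aHFSC, as were 0.391% of all gene rows. All 5 had a higher fitted mean in aHFSC, of which Ccna2 (3.70 ± 0.48, adjusted p = 0.0336), Uhrf1 (2.36 ± 0.25, adjusted p = 0.033) and Mcm6 (1.61 ± 0.17, adjusted p = 0.033) were called. These calls end without either aged WT array and within either slide, where 0 genes were called. The summed level of the list on the linear scale, where 1 is the 75th percentile of the array, ran from 24.2 to 50.8 in tHFSC, from 83.5 to 164 in aHFSC and from 66.4 to 98.6 in IFE. The summed level of the 6 measured fibroblast markers ran from 3.68 to 11.3 in tHFSC, from 1.57 to 4.67 in aHFSC and from 13.5 to 28 in IFE. Between the states 1 of them, Col1a2, was called lower in aHFSC. The sum in IFE does not stand for the list as a whole. Against IFE, 5 of the 6 had a higher fitted mean in HFSC, with 1 called higher and 1 lower. Col1a1 and Pdgfra were well above background on no IFE array. No marker of either list was below background on every tHFSC or every aHFSC array, and their part in the Dio2 difference was not tested.

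Dio3, the inactivating deiodinase, was nearly level across the series. Its log2 levels in tHFSC were -0.36 in young control, -0.46 in young Col17a1 cKO, 0.02 in young aPKC cKO, -0.23 in young hCOL17A1, -0.32 in aged WT and -0.30 in aged hCOL17A1. In aHFSC they were -0.39, -0.42, -0.20, -0.34, -0.26 and -0.59 in the same order, and in IFE they ran from -0.61 to -0.34. The 3 states overlapped. The mean pair difference was -0.09 ± 0.14 (SD, n = 6) and was positive in 2 of 6 conditions. Its SD over the 16 arrays, 0.15, was in the 0.5th percentile of all gene rows, and that of Dio2, 2.19, in the 99th. The SD of Dio2 includes the state difference on which it was chosen, so that rank is a description only. The Dio3 probe, at chr12:111518792-111518851 on the plus strand (mm9), was well above background on 16 of 16 arrays.

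Dio1, which encodes the other outer-ring deiodinase, lay between -0.90 and 0.19 in tHFSC, -1.14 and -0.18 in aHFSC and -1.09 and -0.22 in IFE. Its pair differences averaged -0.41 ± 0.50 (SD, n = 6) and it was not called between the states (adjusted p = 0.486). The states of Dio1 overlapped, as did those of Dio3, while Dio2 was chosen with its state difference known. How many of all gene rows have states that do not overlap was not counted.

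Slc16a10, the transporter, was well above background on 7 of 8 young and on 0 of 4 aged HFSC arrays. In young HFSC the log2 levels of tHFSC and aHFSC were -3.71 and -2.25 in control, -3.17 and -3.37 in the Col17a1 cKO, -4.55 and -2.58 in the aPKC cKO, and -2.13 and -2.07 in hCOL17A1. In aged HFSC they were -5.07 and -4.74 in WT and -5.20 and -6.14 in hCOL17A1. On the 4 aged HFSC arrays and on the aPKC cKO tHFSC array the probe was not well above background, so these 5 have no order among themselves. In IFE the levels were -2.94 in young WT, -1.79 in young hCOL17A1, -2.84 in aged WT and -2.56 in aged hCOL17A1, all well above background.

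Young control and hCOL17A1 HFSC were 5.79-fold brighter for Slc16a10 than aged HFSC. Each aged signal was taken as the higher of the probe's own value and the array's lowest signal well above background. Without the aged hCOL17A1 aHFSC array, an alternative chosen after seeing the data, the fold was 5.51. On the remaining aged arrays the probe's own value was used. Those values were not well above background, so the folds are not strict lower bounds. The fitted age difference was -2.75 ± 0.47 (adjusted p = 0.0861), partly measured against background, or -2.33 without the 2 arrays that stood apart, and did not pass. In that comparison 0.0384% of gene rows were called, 12 in number, and none of the 5 genes. This comparison coincides with the slide, and within it RU486 and plucking are labelled for the young control only. The second slide holds the aged HFSC and all IFE arrays. Within it, by the same rule, aged IFE was 5.19-fold brighter than aged HFSC, or 4.94-fold without the aged hCOL17A1 aHFSC array. In IFE the age difference was -0.33 ± 0.66 (adjusted p = 0.934). With normexp correction, which adds an offset to every signal, the fitted age difference in HFSC was -0.45, and with the next brightest probe it was -0.79.

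Between the states Slc16a10 had a mean pair difference of 0.45 ± 1.08 (SD, n = 6), positive in 4 of 6 conditions, with 1.46 in young control and 1.97 in the aPKC cKO and the other 4 between -0.94 and 0.33. The mean was smaller than the spread. In both aged pairs neither array was well above background, so their signs carry no order. The aPKC cKO difference was measured against a tHFSC array that was not well above background. The pairs with both arrays well above it differed by 1.46 in young control, -0.21 in Col17a1 cKO and 0.06 in young hCOL17A1. Its other 2 probes were well above background on 5 and 1 of the 16 arrays, and their mean pair differences were -0.30 ± 0.61 and 0.13 ± 0.58.

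Thra, which encodes the receptor TRα and its variants, was well above background everywhere and showed no common direction between the states. Its tHFSC levels were 2.44 in young control, 1.99 in young Col17a1 cKO, 1.61 in young aPKC cKO, 1.76 in young hCOL17A1, 0.57 in aged WT and 1.79 in aged hCOL17A1. In aHFSC they were 0.93, 1.21, 2.25, 0.47, 1.35 and 0.84 in the same order, and in IFE they ran from 1.31 to 2.34. Levels in aHFSC were lower in 4 conditions and higher in 2, the aPKC cKO and aged WT, with a mean pair difference of -0.52 ± 0.99 (SD, n = 6). The states overlapped.

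The 2 probes of Thra gave different pictures, so their positions and first 30 bases of 60 are shown. The brighter, used above, lies at chr11:98626356-98626415 and the dimmer spans chr11:98617475-98618281, 807 bases for 60 of probe, both on the plus strand (mm9).
Thra brighter probe: aaatggtagtcatcctaactgcactttgga
Thra dimmer probe: aaagcagcatgtcagggtatatccctagtt
Both are assigned by the array's design to the same transcript. Over the 16 arrays they correlated at r = -0.033, a description over arrays that share slides and states. The dimmer probe was lower in aHFSC in all 6 conditions, with log2 levels in tHFSC and aHFSC of 1.54 and 0.62 in young control, 0.37 and 0.24 in the Col17a1 cKO, 1.08 and -0.43 in the aPKC cKO, 0.82 and -1.0 in young hCOL17A1, 1.18 and 1.05 in aged WT, and 1.63 and 1.14 in aged hCOL17A1. Its mean pair difference was -0.83 ± 0.71 (SD, n = 6), and its states still overlapped. Against IFE the direction itself depended on the probe, with fitted differences of -0.44 for the brighter and 0.71 for the dimmer.

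**Figure D2:**
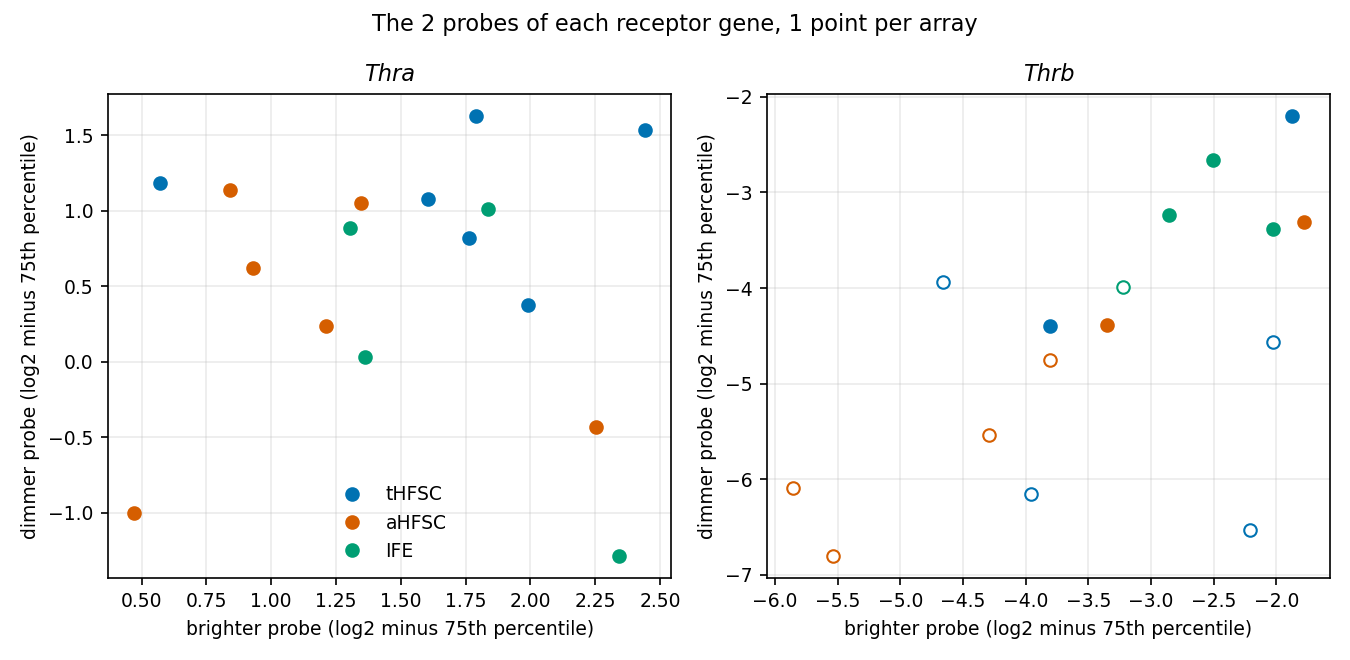
The dimmer against the brighter probe of Thra (left) and Thrb (right), log2 signal minus the 75th percentile, 1 point per array, coloured by cell state; open points were not well above background for at least 1 of the probes. The Thra probes do not follow each other (r = -0.033), while the Thrb probes do in part (r = 0.626).

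Thrb, which encodes the receptor TRβ, was dim, with 13 of 16 arrays well above background. Its tHFSC levels were -4.66 in young control, -3.81 in young Col17a1 cKO, -2.22 in young aPKC cKO, -1.88 in young hCOL17A1, -2.03 in aged WT and -3.96 in aged hCOL17A1. In aHFSC they were -3.81, -5.54, -3.35, -1.78, -4.29 and -5.86 in the same order, and in IFE they ran from -3.22 to -2.03. The young control tHFSC, Col17a1 cKO aHFSC and aged hCOL17A1 aHFSC arrays were not well above background. Levels were lower in aHFSC in 4 of 6 conditions and the mean pair difference was -1.01 ± 1.23 (SD, n = 6), smaller than its spread.

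In the 2 aged conditions the Thrb pair differences were -2.27 and -1.90, and in the 4 young ones they ran from -1.73 to 0.86. The test of state by age gave -1.60 ± 0.76 (adjusted p = 0.812) and was not called, and with the dimmer Thrb probe the value was 0.09. The young hCOL17A1 arrays were the highest of the HFSC arrays, 2.41 ± 0.73 above young control (adjusted p = 0.535), with no RU486 labelled for the transgenic mice. In aged HFSC the transgene difference had the other sign, -1.75 ± 0.73 (adjusted p = 0.395), or -1.22 without the 2 arrays that stood apart. The aPKC cKO lay 1.45 ± 0.73 above control (adjusted p = 1), and the dimmer probe gave -1.11. None of these was called, and the control mean includes an array that was not above background.

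**Figure D3:**
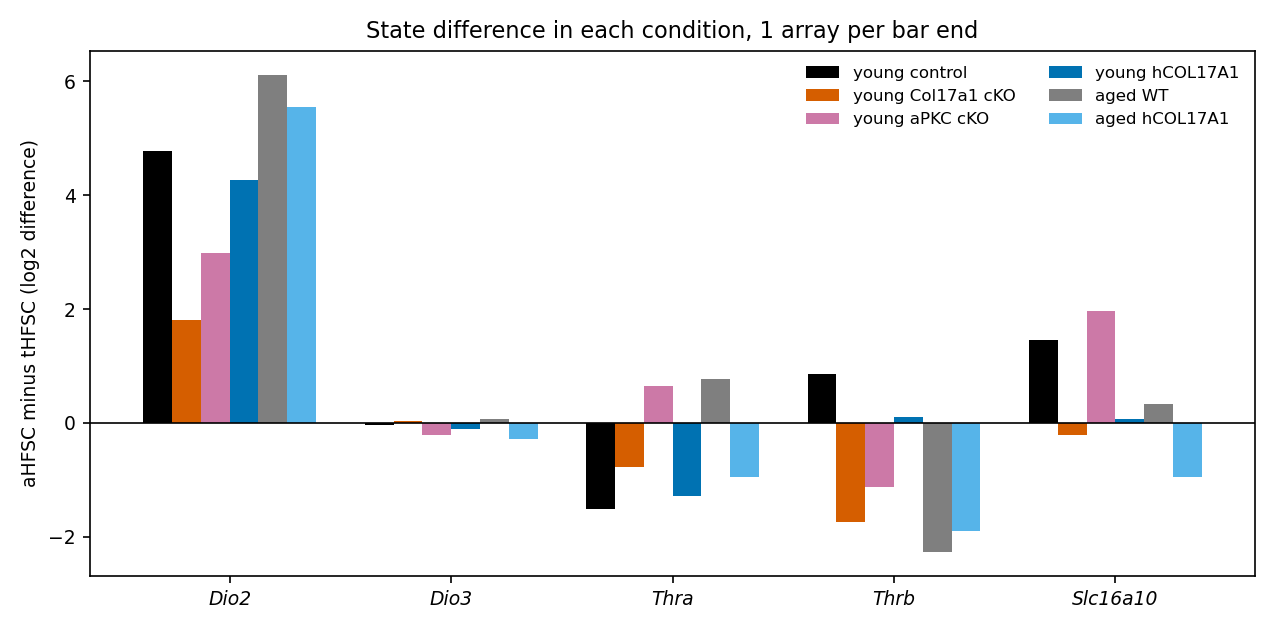
Difference between the aHFSC and the tHFSC array of each condition on the log2 scale, for the 5 genes; each bar is 1 pair of arrays. All 6 Dio2 bars are positive, from 1.81 to 6.12, while Thra, Thrb and Slc16a10 have bars of both signs and the Dio3 bars lie between -0.29 and 0.07.

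For Dio2 the IFE lay between the HFSC states on average and spread widely. Its levels were 2.09 in young WT, -1.95 in young hCOL17A1, 0.44 in aged WT and 0.03 in aged hCOL17A1, a mean of 0.15 ± 1.66 (SD, n = 4). The young WT array lay above 4 of the 6 aHFSC arrays, and the young hCOL17A1 array lay within the tHFSC range. The order of the means was tHFSC (-2.58 ± 0.85), IFE and aHFSC (1.67 ± 0.97), and IFE overlapped both neighbours. In matched conditions aHFSC minus IFE was -0.34 for young control against young WT, 3.20 for young hCOL17A1, 2.89 for aged WT and 2.12 for aged hCOL17A1. For tHFSC minus IFE the values were -5.11, -1.06, -3.23 and -3.43. The tHFSC were thus below IFE in 4 of 4 matched conditions and the aHFSC above it in 3 of 4. The match is by age and transgene only. RU486 is labelled for the young control HFSC and plucking for its aHFSC, but neither for young WT IFE. Both young HFSC conditions also lay on a different slide from IFE.

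The mean of both HFSC states, which does not use the state difference, was tested against IFE. In that comparison 6.3% of gene rows were called, 2.07% higher and 4.22% lower in HFSC, and none of the 5 genes was. The differences were -0.62 ± 0.67 for Dio2 (adjusted p = 0.673), 0.11 ± 0.17 for Dio3 (0.787), -0.44 ± 0.39 for Thra (0.589), -0.88 ± 0.45 for Thrb (0.32) and -1.38 ± 0.41 for Slc16a10 (0.0898). For Slc16a10 the matched differences were -0.04 in young control and -0.31 in young hCOL17A1. The aged HFSC arrays were all not well above background and allow only the rough fold of 5.19 given above. The fitted value is thus partly measured against background. Without the aged hCOL17A1 tHFSC array it passed, at -1.59 (adjusted p = 0.0445), and without the 2 arrays that stood apart it was -0.95 (adjusted p = 0.395). Dio2 was at -1.73 without those 2 arrays (adjusted p = 0.333), and its sign turned, to 0.29, without the young WT or without the aged hCOL17A1 IFE array.

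Within IFE, Dio2 had a fitted hCOL17A1 minus WT difference of -2.23 ± 1.09 (adjusted p = 0.847), which was not called. It rested on the young pair: without the young hCOL17A1 IFE array the value was -0.41. The age difference of Dio2 in IFE was 0.16 ± 1.09 (adjusted p = 0.983). In both comparisons 0% of gene rows were called, with 1690 and 1980 at an unadjusted p under 0.05, and none of the 5 genes.

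Across HFSC of both states, neither knockout nor the transgene moved Dio2 past the threshold. The Col17a1 cKO differed from control by 0.48 ± 1.09 (adjusted p = 1), with a higher tHFSC and a lower aHFSC array than control. The aPKC cKO differed by -0.05 ± 1.09 (adjusted p = 1). The hCOL17A1 difference was -0.25 ± 1.09 in young (adjusted p = 0.984) and -0.89 ± 1.09 in aged mice (adjusted p = 0.75), and the age difference was 0.58 ± 0.77 (adjusted p = 0.804). The last 2 were -1.67 and 0.19 without the arrays that stood apart. In the 4 genotype comparisons 0% of gene rows were called by limma, with 1265, 1077, 2131 and 3766 at an unadjusted p under 0.05 in the order given, and none of the 5 genes was called. Over the 10 comparisons tested, 0 of 50 results for the 5 genes passed and 4 had an unadjusted p under 0.05. Of all 31239 gene rows, 6392 had an unadjusted p under 0.05 in HFSC against IFE and 3882 in aged against young HFSC. The counts for the remaining comparisons are given with them.

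The wider route of thyroid hormone was followed in lists of 45 genes, 42 of which were measured. The lists also hold hedgehog and other regulators of deiodinases and the imprinted neighbours of Dio3, which do not handle the hormone themselves. Between aHFSC and tHFSC 0.551% of all gene rows were called, 122 higher (0.391%) and 50 lower (0.16%), and 0 of the 42 in either direction by limma. Their median difference was -0.01, against -0.09 over all gene rows. The call rule is sensitive to single arrays here: the 172 calls fell to 0 without either aged WT array to between 1 and 3 without an array of young control, Col17a1 cKO or hCOL17A1 HFSC, and to 81 or 95 without one of the other HFSC arrays.

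Among the other transporters, Slc7a5, the light chain of the LAT1 amino acid and thyroid hormone transporter, differed by 1.33 ± 0.37 (SE; adjusted p = 0.18), with 5 of 6 pair differences positive, and did not pass. Slco1c1, which carries T4, differed by -1.03 ± 0.33 (adjusted p = 0.246) and did not pass either. The genes that attach and remove ubiquitin on the type 2 deiodinase, Wsb1, Marchf6, Usp20 and Usp33, differed by between -0.19 and 0.08. Of 5 genes for selenoprotein synthesis, 4 had a positive difference, with a median of 0.31 and 0 called.

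Of the receptors' partners, Rxra differed by 0.86 ± 0.32 (adjusted p = 0.31), positive in 6 of 6 conditions and not called. The 6 coactivators had a median difference of -0.18 and the 5 measured corepressors of -0.11, with 0 called in each. Genes that thyroid hormone receptors are known to regulate were also not called, with Klf9 at -0.25 ± 0.43, Thrsp at 0.07 ± 0.54 and Me1 at 0.15 ± 0.57. Dlk1, an imprinted neighbour of Dio3 that encodes a Notch-like ligand, was -1.24 ± 0.28 in aHFSC against tHFSC (adjusted p = 0.113), while Meg3, Rtl1 and Mirg in the same cluster lay between -0.25 and 0.21.

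Hedgehog signalling is known to change deiodinase levels in keratinocytes. Ptch1, its receptor and target, was 1.52 ± 0.33 (adjusted p = 0.101) and Gli1, its transcription factor and target, 1.45 ± 0.41 (adjusted p = 0.185) in aHFSC against tHFSC, positive in 6 and 5 of 6 conditions, and neither was called. The ligand gene Shh was well above background on 0 tHFSC and 1 aHFSC array.

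Against IFE, 6 of the 42 measured genes were called, 5 higher and 1 lower in HFSC, beside 6.3% of all gene rows called, 2.07% higher and 4.22% lower, with a median of -0.05 against -0.10 over all gene rows. The higher genes were Gli1 (5.84 ± 0.43, adjusted p = 0.00017), Gli2 (4.84 ± 0.52, adjusted p = 0.00123), Ptch1 (3.05 ± 0.35, adjusted p = 0.0017), the transcription factor gene Foxo3 (1.63 ± 0.33, adjusted p = 0.0217) and Slc7a8, which encodes the LAT2 transporter (1.25 ± 0.28, adjusted p = 0.036). Of these 5 higher genes, 4 came from the list of hedgehog and other regulators, and only Slc7a8 from the transporters. The lower gene was Cpt1a, the carnitine palmitoyltransferase of fatty acid oxidation (-1.09 ± 0.22, adjusted p = 0.0219). For Slc7a8 the 4 IFE arrays ran from -0.32 to -0.01 and the HFSC arrays from -0.47 to 2.0, and 1 tHFSC array lay below all IFE arrays.

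**Figure D4:**
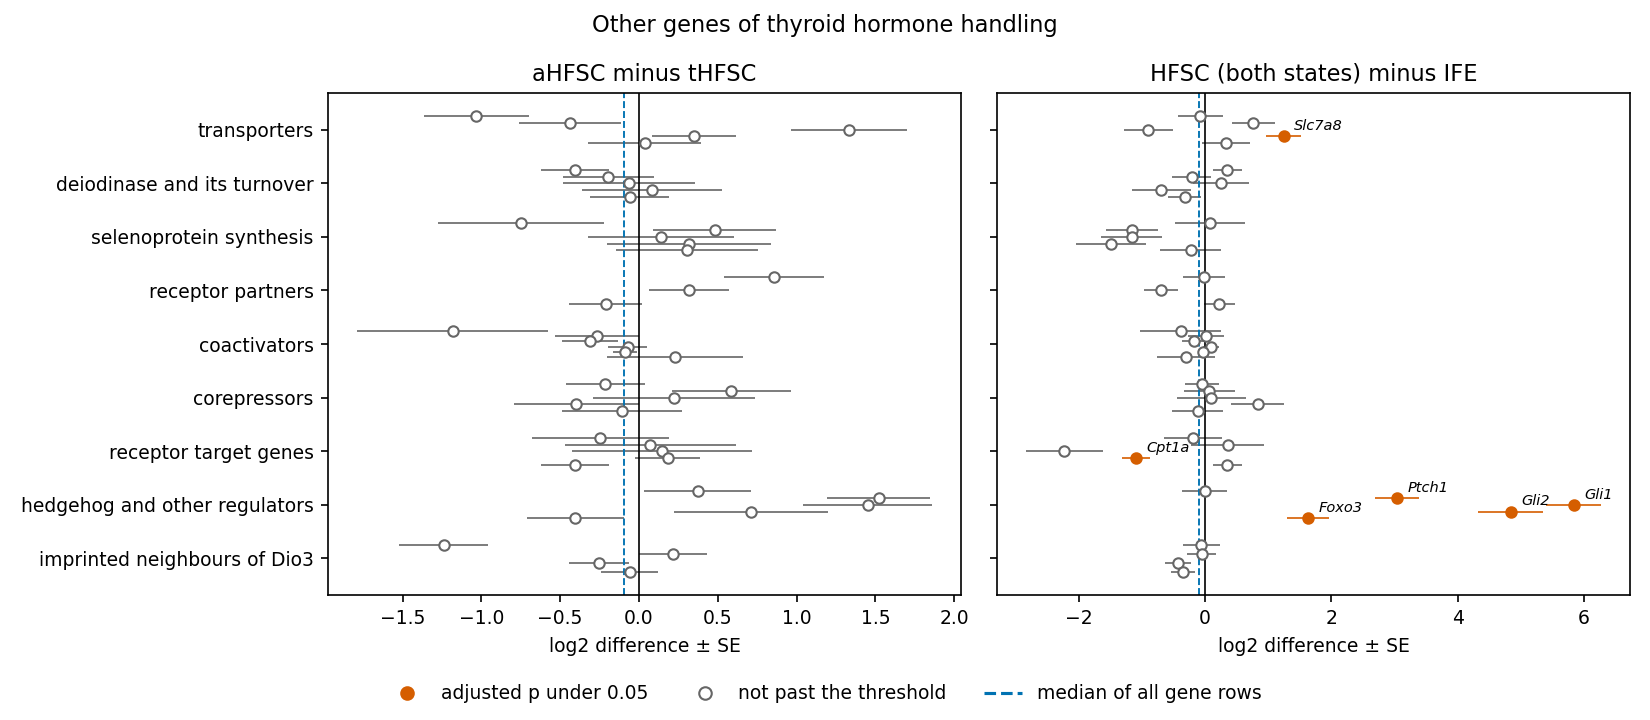
Fitted log2 differences with SE for the 42 measured genes by list, for aHFSC minus tHFSC (left) and for HFSC minus IFE (right). The lists cover thyroid hormone handling, hedgehog and other regulators of deiodinases, and imprinted neighbours of Dio3. Filled points passed an adjusted p of 0.05 and the dashed line is the median of all gene rows. No gene passed on the left and 6 on the right, with Gli1 the highest at 5.84. Of the 6, 4 came from the list of hedgehog and other regulators.

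The genes whose pattern over the 16 arrays was most like that of Dio2 were ranked by Pearson correlation among 20292 genes with an official symbol. The highest were Snhg3 (r = 0.896), a small nucleolar RNA host gene, Shmt1 (0.893), a serine hydroxymethyltransferase gene of one-carbon metabolism, Hnrnpab (0.881) and Fubp1 (0.866), which encode RNA- and DNA-binding proteins, Cdca7l (0.865) and Alg3 (0.858), a mannosyltransferase gene of protein glycosylation. Over the 12 HFSC arrays alone their correlations were 0.861 to 0.952. The lowest were Cdon (-0.859), which encodes a cell-surface hedgehog co-receptor, Pdk2 (-0.857), a pyruvate dehydrogenase kinase gene, and Akr1c6 (-0.851). Cdca7l had means of -1.92 in tHFSC, 1.43 in aHFSC and 0.03 in IFE, and Pdk2 of 3.46, 0.80 and 0.54. The arrays share slides and states, so these correlations describe likeness of pattern and nothing more. Among the 5 genes themselves Dio2 correlated at between -0.42 (with Thra) and 0.047 (with Slc16a10).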

How the data were processed

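RNA from 16 sorted cell samples was measured on one-colour arrays labelled with Cy3, 1 array per group. The authors deposited each array's scanner output from Agilent Feature Extraction 11.5.1.1 (mm9 design), whose processed signals are linear, background-subtracted intensities per the file headers. Their deposited value table holds log2 values, equal to log2 of that signal minus a constant per array (99.65% to 100% of probes within rounding). The aligner of probes to genes is not given in the sources used here.

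Outlier-marked and control spots were left out, log2 signals of the spots of a probe were averaged, and the 75th percentile over probes was subtracted. The file of the young control tHFSC array breaks off after 46417 of 55681 probes, and the 9264 others were filled from the value table. From that array the table's own constant, 8.185, was subtracted, where the 75th percentile of the probes held was 8.203. Probes well above background on at least 2 arrays and with a value on all 16 were kept, 49826 in all, and the brightest per gene gave 31239 gene rows, 20293 with an official symbol. Names came from a RefSeq table by accession (28026 probes), symbol (3418) or synonym (295), and 23942 kept the file's name. Genes of the lists with no kept probe were not analysed here, and 2 further list genes are not reported here. No spot was saturated.

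All arrays entered 1 limma fit (limma 3.58.1, R 4.3.3; eBayes with a trend, two-sided, Benjamini-Hochberg over all gene rows, threshold 0.05) with a term per HFSC condition, a common state shift, and age and transgene terms for IFE, leaving 6 residual degrees of freedom, or 5 with a state-by-age or state-by-transgene term. With no replicate arrays, p-values measure scatter around this additive fit, not variation between animals, and the number of arrays limits the precision. The fit was tested on simulated data. Folds against a group below background use, per array, the higher of the dim probe's signal and the lowest signal well above background.

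Named genes are the 5 members, list genes that passed (otherwise up to 4 of a list), and the 6 most and 3 least correlated with Dio2. Further list and marker genes, Slc7a5 among them, were named after their values were seen. The members and lists were chosen with earlier results of these data known. For members other than Dio2, single values in the further comparisons are given where the unadjusted p was under 0.1, a limit chosen after values were seen. Alternatives covered background correction, normalization, filters, probes, the trend, slides, single arrays and pairing.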

Additional observations from a re-analysis of the deposited data

How the results depend on the processing

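The Dio2 difference between the states ran from 3.09 to 5.83 on the log2 scale under 28 alternatives (3.46 within slide 1, 5.83 within slide 2). All 6 pair differences were positive, so alternatives that leave out arrays or use 1 slide could not turn its sign. With 1 probe, the choice of probes could not change it. The kept sign is therefore no test of the difference. Slc16a10 between the states ran from -0.31 to 0.82, the lowest being within slide 2, where no HFSC array was well above background for it. The 172 genes called between the states became 14 without the variance trend, 0 within slide 1, 0 within slide 2, 110 without the 2 arrays that stood apart and 296 unpaired, and 0 to 203 when each array was left out in turn. The 1967 called against IFE became 189 within slide 2, 1190 with only the arrays compared, 1242 without the 2 arrays, and 726 (without aged WT IFE) to 2652 with 1 array left out. The Thra difference from IFE turned to 0.13 with the mean of its probes, 0.71 with the next probe, and 0 without the 2 arrays.

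Dio2 with age in IFE turned to -0.12 with normexp and -1.66 without the 2 arrays. Thrb in the aPKC cKO turned to -1.11 and Thrb state by age to 0.0895 with the next probe, an alternative chosen after seeing the data. With 1 array left out, Dio2 ranged from -0.98 to 1.95 in the Col17a1 cKO, -0.81 to 0.71 in the aPKC cKO, -0.56 to 0.0624 for young and -2.01 to 0.23 for aged hCOL17A1, -1.66 to 1.98 for age in IFE and -1.53 to 0.29 against IFE, and Slc16a10 against IFE from -1.60 to -1.16. Over all 50 tested results of the 5 genes and 1265 alternatives, 84 turned the sign and 1 result passed the threshold under any. The cause of these changes was not tested.

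Slide as a block could not be fitted, since each HFSC condition lies on 1 slide and all IFE on the other. The HFSC arrays were paired by condition in the fit, and no replicate block was possible because each group has 1 array. Signal over background limits Thrb and Slc16a10 most, with 13 and 11 of 16 arrays well above it.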
